A study of Danio rerio with 12 samples.

Results

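The 7 genes described here, PSMB2, cox6b1, RFX1, slc38a5b, FOXF1, LZTS2 and PAPSS2, belong to varied functions and had lower signals in sema6A morphant zebrafish embryos than in controls. They were chosen by their sema6A minus control differences, among the largest called falls, so those values are given as a description with no test. Their Ensembl gene identifiers matched 8 of the 5134 rows of the deposited table, because PAPSS2 has 2 rows. All 8 rows were tested, with no filter on low values. Of the 7 lower rows, FOXF1 had the smallest difference (−1.64 on the log2 scale), and the other PAPSS2 row was higher by 0.69. Among called falls with a symbol and no overlap with controls, grhprb (−1.62) came next. Some larger falls, such as hbae1.3 (−2.49) and MYT1 (−1.97), were not among the 7 genes.

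The 12 arrays measured total RNA of rx3:GFP zebrafish embryos, a line whose reporter is named for an eye field gene, in 3 groups of 4 biological replicates. Sema6A morphants had been injected as zygotes with an antisense morpholino against Semaphorin6A, and plexinA2 morphants with a morpholino against PlexinA2, a receptor for semaphorins. The control group is labelled wild-type, carries the array name UIC, which the sources used here do not spell out, and has no injection named for it. All groups share the strain and the stage, given as 18 hours after fertilisation and as 18 somites at 25 °C. Morpholino knockdown is transient and acts in every tissue the oligonucleotide reaches. The rows of the 2 targeted genes were not analysed here.

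The 7 genes act in separate parts of the cell. The proteasome degrades ubiquitin-tagged proteins inside a barrel-shaped core, and cytochrome c oxidase is the last complex of the mitochondrial respiratory chain. RFX and forkhead proteins are winged-helix transcription factors, known for ciliary genes in the case of RFX and for lateral plate and gut mesoderm in the case of Foxf1 in the mouse. Neutral amino acid transporters, regulators of beta-catenin and enzymes that activate sulfate for sulfation of matrix and hormones make up the rest.

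As a background to every value, array medians lay between 608 and 708 intensity units, and the residual SD of a row had a median of 0.47 (log2). Control replicate 2 and sema6A replicate 1 had the lowest mean rank correlation with the other arrays (0.835 and 0.876, against 0.907 or more for the other 10). Of 23 measured rows of embryonic tissue markers, 21 had lower means in sema6A morphants than controls, and none was at 0. The count was not recomputed without either array, and the share of all rows with lower means was not computed. The rows hold SHH and TNNT3 more than once and no gene of epidermis or endothelium. No general loss of tissue markers is read from the count. The summed intensity of these rows was 54404 to 82655 in sema6A morphants, 108378 to 114909 in plexinA2 morphants and 95234 to 133755 in controls. The marker rows that passed (limma adjusted p under 0.05) were the erythroid genes hbae1.3, gata1a and alas2. In bulk RNA, fewer cells of a type and less RNA per cell cannot be told apart. The p53 response genes had a summed intensity of 148403 to 183590 in sema6A morphants and 174959 to 188519 in plexinA2 morphants, against 65812 to 100890 in controls. The part of either marker group in the results below was not tested.

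On all 4 sema6A arrays, each of the 7 genes (with PAPSS2 by its fallen row) lay below all 8 other arrays. Over all rows 1.93% had this order, and since the sema6A and control values chose the genes, nothing is read from the count. Against plexinA2 morphants, 4 of the 8 rows passed at a limma adjusted p under 0.05, all lower: PSMB2, PAPSS2, cox6b1 and slc38a5b. Over all rows 1.71% passed in this comparison and 1.27% were lower. Of the 58 rows called lower in sema6A morphants than in controls, from which the genes were chosen, 32.8% were also called lower here. At an unadjusted p under 0.05 there were 7 of the 8 rows, against 26.8% of all rows. RFX1, LZTS2 and FOXF1 were also lower on every sema6A array than on any plexinA2 array (12.9% of all rows), and did not pass. No row passed in plexinA2 morphants against controls, where 2.86% of all rows did, and none had an unadjusted p under 0.05 there (17.2% of all rows). The sema6A arrays enter both the choice of the genes and the comparison with plexinA2, and the control arrays enter the choice and the comparison of plexinA2 with controls, so neither is independent of the choice.

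**Figure D1:**
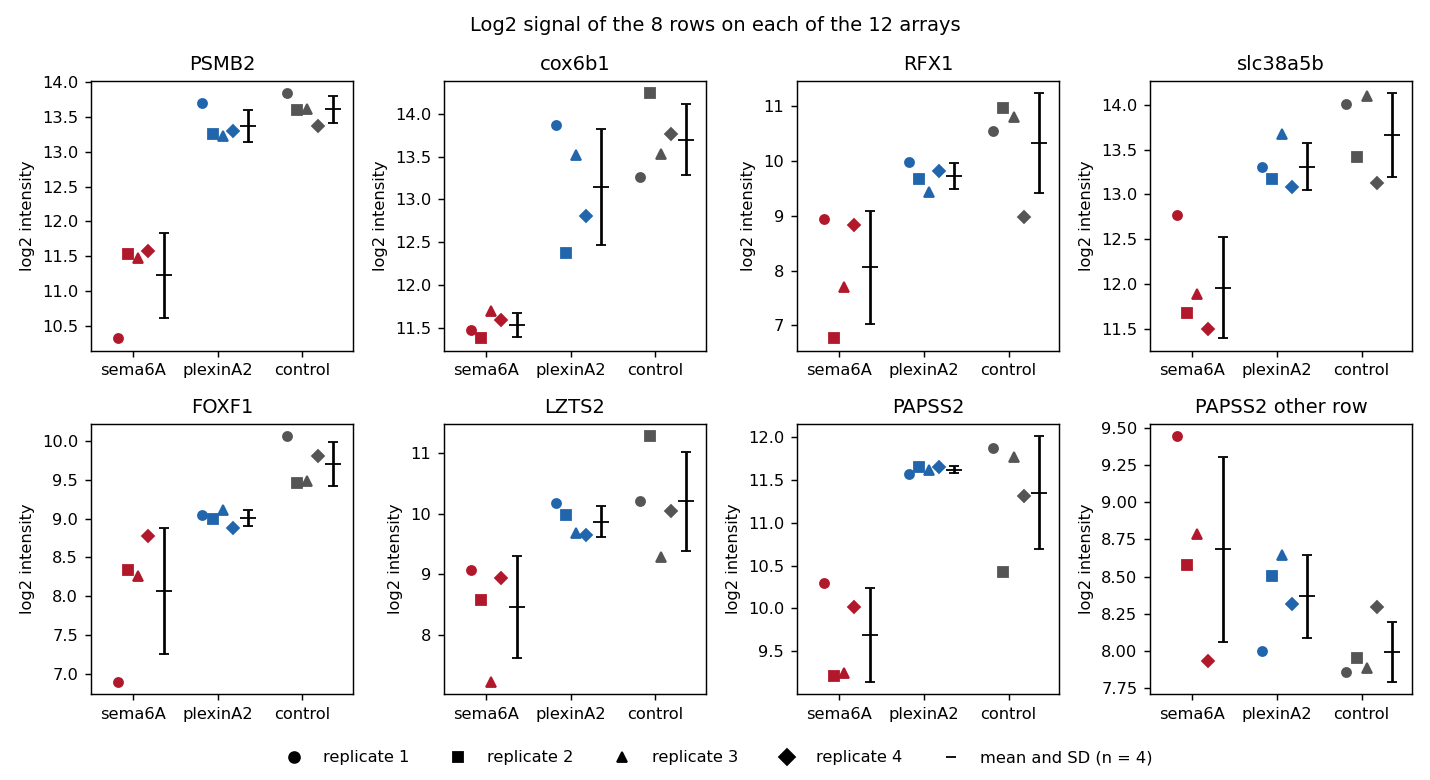
Log2 intensity (vertical axes) of the 8 rows on each array, with sema6A, plexinA2 and control arrays from left to right, a marker shape per replicate, and the mean and SD of 4 arrays beside each group. In 7 panels the sema6A points lie below all others, by 1.65 for PSMB2 and by 0.030 for RFX1, and in the panel of the other PAPSS2 row the groups overlap.

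PSMB2 (ENSDARG00000031511) encodes a beta subunit of the proteasome core. Its log2 signals were 10.31, 11.53, 11.47 and 11.58 on the sema6A arrays, 13.70, 13.25, 13.22 and 13.30 on the plexinA2 arrays and 13.84, 13.60, 13.62 and 13.38 on the control arrays. The lowest of the 8 other arrays stood 1.65 above the highest sema6A array, and plexinA2 and control arrays overlapped. Sema6A replicate 1 was the lowest array by far. The mean was 11.22 ± 0.61 in sema6A morphants, 13.37 ± 0.22 in plexinA2 morphants and 13.61 ± 0.19 in controls (SD, n = 4 each). That is 5.23-fold lower in sema6A morphants than in controls (−2.39 ± 0.31, SE, as for all differences below). Against plexinA2 morphants PSMB2 fell 4.43-fold, by −2.15 ± 0.31 (limma adjusted p = 0.00234), and this call held in all 12 fits that left out 1 array (largest adjusted p = 0.0147). PlexinA2 morphants differed from controls by −0.24 (95% confidence interval −0.88 to 0.41, adjusted p = 0.730).

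Of 60 names of subunits, activators, assembly factors and their regulator, 11 rows were measured besides PSMB2, and all 11 were higher in sema6A morphants than in controls. Their median was 0.52, against 0.065 over all rows. One passed, higher, and none passed lower (1.99% and 1.13% of all rows). It was NFE2L1, named for a transcription factor that drives proteasome subunit genes, which rose by 1.34 ± 0.32 (limma adjusted p = 0.0289). Its log2 signals were 9.90, 9.64, 9.16 and 8.67 in sema6A morphants and 8.26, 7.44, 7.89 and 8.43 in controls, without overlap. The list had 0 calls without control replicate 2, without sema6A replicate 2 or 3, and in the fit of only these 2 groups. The core subunits PSMA5 (0.37, adjusted p = 0.470) and PSMA4 (0.33, adjusted p = 0.700) did not pass. For PSMA4 control replicate 2 was low (12.28), and the other controls (14.18 to 14.39) lay within the sema6A range (13.63 to 14.54). The count of higher rows and the median were not recomputed without that array. The share of all rows above 0 was not computed either, so no common rise of the list is read from them. In sema6A against plexinA2 morphants the list had a median of 0.72, with 3 rows below 0 and none passing. There 8 of the 11 had an unadjusted limma p under 0.05, against 26.8% of all rows. In plexinA2 morphants 2 of the 11 rose against controls (2.61% of all rows): PSME2, an activator gene, by 2.03 (adjusted p = 0.00115), and PSMB8, of the immunoproteasome, by 1.52 (adjusted p = 0.0240). The count was 1 without control replicate 1 or 3 or plexinA2 replicate 1, 2 or 4.

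In cox6b1 (ENSDARG00000045230), a nuclear-encoded subunit gene of cytochrome c oxidase, the sema6A arrays were the most alike of any member. Log2 signals were 11.47, 11.38, 11.69 and 11.60 in sema6A morphants, 13.87, 12.37, 13.51 and 12.80 in plexinA2 morphants and 13.26, 14.24, 13.53 and 13.76 in controls. PlexinA2 arrays were the widest spread and reached below the controls, and the lowest of them stood 0.68 above the highest sema6A array. Means were 11.54 ± 0.14 in sema6A morphants, 13.14 ± 0.68 in plexinA2 morphants and 13.70 ± 0.41 in controls (SD, n = 4 each). The level was 4.48-fold lower in sema6A morphants than in controls (−2.16 ± 0.33). Against plexinA2 morphants it fell 3.04-fold, by −1.61 ± 0.33 (limma adjusted p = 0.0239). That call was lost in 5 of the 12 fits without 1 array, those without plexinA2 replicates 1, 3, 4 and sema6A replicates 2, 3, with adjusted p up to 0.111. PlexinA2 morphants differed from controls by −0.56 (−1.25 to 0.14, adjusted p = 0.408), and by −0.30 without plexinA2 replicate 2.

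Among 13 other measured rows of cytochrome c oxidase subunits and assembly factors (50 names), 11 were below 0 in sema6A morphants against controls, with a median of −0.17. Of these 1 fell and 12 did not pass. Control replicate 2 was high in several of the rows, such as coa5 (13.12, other controls 10.21 to 10.87). It was also high in cox14 (11.74, other controls 8.52 to 9.25), but was the lowest control in ndufa4b (9.47). In plexinA2 morphants against controls 11 rows were also below 0 (median −0.43). In sema6A against plexinA2 morphants 4 were below 0 (median 0.14). The counts below 0 and the medians were not recomputed without control replicate 2, so no common fall of the list is read from them. The row that fell was ndufa4b, whose mammalian counterpart is a subunit of the same complex. It had log2 signals of 8.70, 8.92, 8.16 and 7.80 in sema6A morphants, 10.45, 9.70, 9.75 and 9.57 in plexinA2 morphants and 10.02, 9.47, 10.20 and 10.22 in controls. Its sema6A arrays lay below all others. It fell by −1.58 ± 0.32 against controls (limma adjusted p = 0.00897) and by −1.47 ± 0.32 against plexinA2 morphants (adjusted p = 0.0299), where the list had 0 calls without any of plexinA2 replicates 1 to 4 or sema6A replicate 3 or 4. Structural subunit genes such as cox7a1 (−0.20, adjusted p = 0.805), cox8a (−0.12, adjusted p = 0.847) and COX4I2 (−0.17, adjusted p = 0.847) did not pass.

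**Figure D2:**
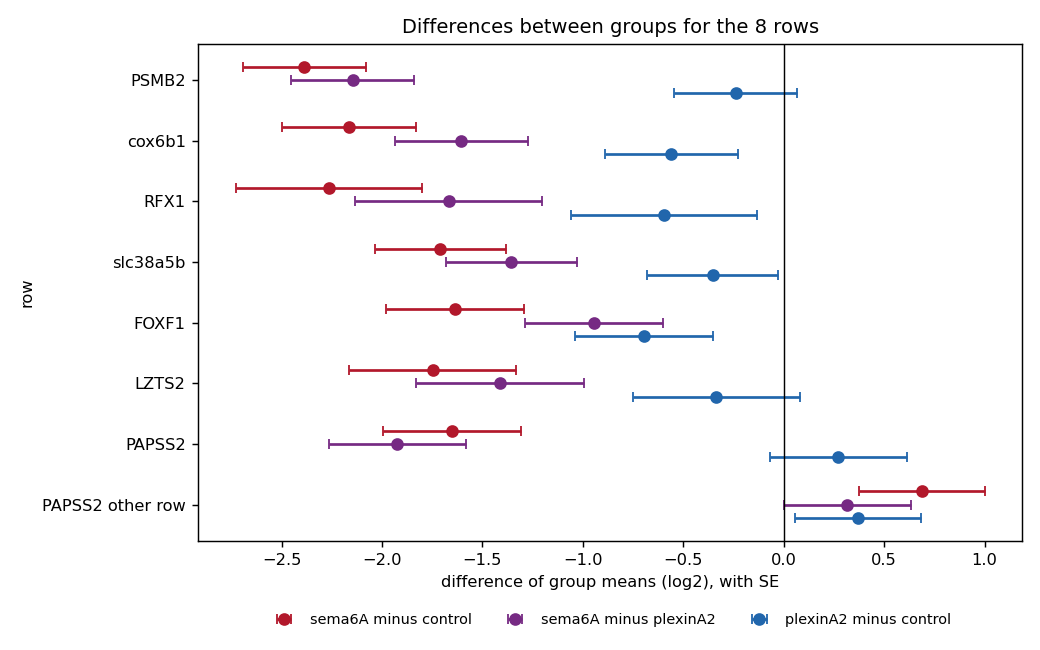
Differences of group means (horizontal axis, log2) with the SE of the limma fit for the 8 rows, with sema6A minus control above sema6A minus plexinA2 and plexinA2 minus control in each row. PSMB2 stands at −2.39, −2.15 and −0.24, whereas for FOXF1 the sema6A minus plexinA2 (−0.94) and plexinA2 minus control (−0.69) differences are of like size.

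RFX1 (ENSDARG00000075904) encodes a factor of the family that binds X-box promoter motifs. Sema6A arrays read 8.94, 6.76, 7.71 and 8.83, plexinA2 arrays 9.99, 9.68, 9.43 and 9.81, and control arrays 10.55, 10.96, 10.80 and 8.98 on the log2 scale. Control replicate 4 was 0.030 above sema6A replicate 1 and below every plexinA2 array. With means of 8.06 ± 1.03 in sema6A morphants, 9.73 ± 0.23 in plexinA2 morphants and 10.32 ± 0.91 in controls (SD, n = 4 each), RFX1 was the most variable member within the sema6A group. It was 4.80-fold lower in sema6A morphants than in controls (−2.26 ± 0.46), and by −2.71 without control replicate 4. The difference from plexinA2 morphants was −1.67 ± 0.46 (95% interval −2.64 to −0.69), and it did not pass (limma adjusted p = 0.0607). It did pass without control replicate 2 (adjusted p = 0.0323), without control replicate 4 (0.0287) or without sema6A replicate 1 (0.0404), and with only the sema6A and plexinA2 arrays fitted (0.0159). In that order these fits called 495, 248, 157 and 743 of all rows, against 88 with all arrays. The difference itself changed only without sema6A replicate 1 (−1.96). PlexinA2 morphants differed from controls by −0.60 (−1.57 to 0.38, adjusted p = 0.538), by −0.38 without control replicate 2 and by −1.04 without control replicate 4.

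The 22 other measured rows of RFX factors and cilium genes (80 names) had a median of 0.18 in sema6A morphants against controls, and none passed in either direction (3 at an unadjusted p under 0.05, and 1 call without control replicate 4). For this comparison the share of all rows at an unadjusted p under 0.05 was not computed. Nothing is read from its counts at that level, here or in the lists below. RFX2, a paralogue with a role in motile cilia, differed by 0.066 (limma adjusted p = 0.939). TMEM67, a transition zone gene, differed by −0.88 (adjusted p = 0.123) and the dynein arm assembly gene dnaaf1 by 0.80 (adjusted p = 0.210). In plexinA2 morphants foxj1b, a paralogue of the motile cilium regulator foxj1a, rose by 1.63 ± 0.31 against controls (adjusted p = 0.00502), and the other 21 rows did not pass (2 calls in all without control replicate 4 or sema6A replicate 1). A further identifier named RFX1 was not analysed here.

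FOXF1 (ENSDARG00000015399) was graded over the 3 groups. Log2 signals were 6.90, 8.33, 8.26 and 8.77 in sema6A morphants, 9.05, 8.99, 9.11 and 8.88 in plexinA2 morphants and 10.06, 9.46, 9.48 and 9.81 in controls. No group overlapped another, with 0.11 between the highest sema6A and the lowest plexinA2 array and 0.36 between the highest plexinA2 and the lowest control array. FOXF1 was the only one of the 7 genes in which all plexinA2 arrays lay below all controls, an order found in 4.48% of all rows. Means were 8.07 ± 0.81, 9.01 ± 0.098 and 9.70 ± 0.28 in sema6A morphants, plexinA2 morphants and controls (SD, n = 4 each). The level was 3.11-fold lower in sema6A morphants than in controls (−1.64 ± 0.34), and lower by −1.25 without sema6A replicate 1. Neither step passed: sema6A minus plexinA2 was −0.94 ± 0.34 (−1.66 to −0.22, limma adjusted p = 0.107, and −0.55 without sema6A replicate 1), and plexinA2 minus control was −0.69 ± 0.34 (−1.42 to 0.027, adjusted p = 0.312). The difference from plexinA2 morphants was 57.6% of that from controls, the smallest share of the 7 genes.

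Of 17 other measured rows of forkhead, Hedgehog and lateral mesoderm genes (53 names), 11 were below 0 in sema6A morphants against controls, the median was −0.11, and none passed (6 at an unadjusted p under 0.05). The share of all rows at that level was not computed for this comparison, so nothing is read from the count of 6. Of the 6, the Hedgehog inhibitor gene HHIP (−1.15, limma adjusted p = 0.118), the effector gene GLI3 (−0.77, adjusted p = 0.180) and the FOXF1 paralogue foxf2b (−0.93, adjusted p = 0.241) had negative differences. The kinase gene stk36 (0.83, adjusted p = 0.110), MYH11 (0.89, adjusted p = 0.118) and the growth factor gene BMP2 (0.99, adjusted p = 0.133) had positive ones. Against plexinA2 morphants 14 of the 17 were below 0 and the median was −0.52, against 0.0044 over all rows. Again none passed (3 calls without control replicate 2). At an unadjusted limma p under 0.05 there were 6, against 26.8% of all rows. The share of all rows below 0 was not computed, so no common change of the list is read from these values. MYH11, a smooth muscle myosin gene, rose by 1.42 ± 0.31 in plexinA2 morphants against controls (adjusted p = 0.0156), the one call of the list, where 0 were left without control replicate 1 or plexinA2 replicate 4 and 2 were made without control replicate 4 or sema6A replicate 1.

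The transporter gene slc38a5b (ENSDARG00000014587), whose mammalian counterpart exchanges glutamine and other neutral amino acids with sodium and protons, had signals of 12.76, 11.67, 11.88 and 11.49 in sema6A morphants. They were 13.30, 13.18, 13.68 and 13.08 in plexinA2 morphants and 14.00, 13.42, 14.10 and 13.13 in controls (log2). Sema6A replicate 1 was the highest of its group and lay 0.31 below the lowest other array. The mean was 11.95 ± 0.56 in sema6A morphants, 13.31 ± 0.26 in plexinA2 morphants and 13.66 ± 0.47 in controls (SD, n = 4 each), 3.27-fold lower in sema6A morphants than in controls (−1.71 ± 0.33). Against plexinA2 morphants it fell 2.56-fold, by −1.36 ± 0.33 (limma adjusted p = 0.0434). The call was lost in 7 of the 12 fits without 1 array, those without any of plexinA2 replicates 1 to 4 or without sema6A replicate 2, 3 or 4 (largest adjusted p = 0.132). PlexinA2 morphants differed from controls by −0.35 (−1.04 to 0.33, adjusted p = 0.611), by −0.21 without control replicate 3 and by −0.53 without control replicate 4.

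Other amino acid transporter genes, 17 rows of 63 names, had 5 rows below 0 and a median of 0.32 in sema6A morphants against controls, with none passing (3 at an unadjusted p under 0.05, and 1 call without sema6A replicate 4). Within the same family SLC38A7 differed by 0.83 (limma adjusted p = 0.141) and SLC38A3 by 0.45 (adjusted p = 0.568). The glutamate transporter gene SLC1A2 differed by 0.93 (adjusted p = 0.0685) and the cationic and neutral amino acid exchanger gene SLC7A6 by 0.95 (adjusted p = 0.0879).

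LZTS2 (ENSDARG00000074597) encodes a leucine zipper protein that, in human cells, moves beta-catenin out of the nucleus and binds the microtubule-severing protein katanin. Its log2 signals were 9.07, 8.58, 7.23 and 8.94 in sema6A morphants, 10.17, 9.97, 9.67 and 9.65 in plexinA2 morphants and 10.21, 11.27, 9.29 and 10.04 in controls. Control replicate 2 was the highest array and control replicate 3 the lowest outside the sema6A group, 0.22 above sema6A replicate 1. Means were 8.46 ± 0.84 in sema6A morphants, 9.87 ± 0.25 in plexinA2 morphants and 10.20 ± 0.82 in controls (SD, n = 4 each). LZTS2 was 3.36-fold lower in sema6A morphants than in controls (−1.75 ± 0.42). The difference from plexinA2 morphants was −1.41 ± 0.42 (−2.29 to −0.54) and did not pass (limma adjusted p = 0.0675). It passed without control replicate 2 (adjusted p = 0.0277) and with only the sema6A and plexinA2 arrays fitted (0.0192). The difference was still −1.41 in both fits, which called 495 and 743 of all rows, against 88 with all arrays. PlexinA2 morphants differed from controls by −0.34 (−1.21 to 0.54, adjusted p = 0.719), by 0.021 without control replicate 2 and by −0.64 without control replicate 3.

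None of 23 other measured rows of LZTS, katanin and Wnt pathway genes (86 names) passed in any of the 3 comparisons, and their median in sema6A morphants against controls was 0.10. At an unadjusted p under 0.05 there were 2 in sema6A morphants against controls, 5 in sema6A against plexinA2 morphants and 6 in plexinA2 morphants against controls. Over all rows the share was 26.8% in sema6A against plexinA2 morphants and 17.2% in plexinA2 morphants against controls. Nothing is read from these counts. Without control replicate 2 there was 1 call in sema6A against plexinA2 morphants, and without control replicate 4 there were 2 in plexinA2 morphants against controls. Here the paralogue LZTS3 differed by −0.058 (limma adjusted p = 0.945), and the Wnt ligand genes WNT9A by 0.82 (adjusted p = 0.170) and WNT9B by 0.75 (adjusted p = 0.200). A further identifier named LZTS2 was not analysed here.

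PAPSS2 encodes an enzyme that turns sulfate and ATP into PAPS, the sulfate donor of all sulfotransferases, and mammalian PAPSS2 is known from cartilage. Its 2 rows differed in pattern. The row that was lower (ENSDARG00000056600) had log2 signals of 10.29, 9.21, 9.25 and 10.02 in sema6A morphants, 11.57, 11.64, 11.61 and 11.65 in plexinA2 morphants and 11.87, 10.43, 11.77 and 11.32 in controls. The plexinA2 arrays lay within 0.080 of each other, and control replicate 2 was low, 0.13 above sema6A replicate 1. Means were 9.69 ± 0.55 in sema6A morphants, 11.62 ± 0.038 in plexinA2 morphants and 11.35 ± 0.66 in controls (SD, n = 4 each). It was 3.14-fold lower in sema6A morphants than in controls (−1.65 ± 0.34, and −1.96 without control replicate 2). Against plexinA2 morphants it fell 3.80-fold, by −1.92 ± 0.34 (limma adjusted p = 0.0139), a call lost in 5 of the 12 fits without 1 array, those without plexinA2 replicates 1, 3, 4 and sema6A replicates 2, 3, with adjusted p up to 0.0630. It was the only one of the 7 genes whose mean was higher in plexinA2 morphants than in controls, by 0.27 (−0.44 to 0.99, adjusted p = 0.722). That difference was −0.034 without control replicate 2, 0.45 without control replicate 1 and 0.41 without control replicate 3.

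The other PAPSS2 row (ENSDARG00000071021) was not chosen for its values. Its log2 signals were 9.44, 8.58, 8.79 and 7.93 in sema6A morphants, 7.999, 8.50, 8.65 and 8.32 in plexinA2 morphants and 7.86, 7.95, 7.88 and 8.29 in controls. The sema6A arrays spanned the plexinA2 range and overlapped the controls, of which replicates 1 and 3 (7.86 and 7.88) lay below every sema6A array. It differed by 0.69 ± 0.31 between sema6A morphants and controls (0.03 to 1.35, limma adjusted p = 0.224), by 0.32 between sema6A and plexinA2 morphants (−0.34 to 0.98, adjusted p = 0.519) and by 0.37 between plexinA2 morphants and controls (−0.29 to 1.03, adjusted p = 0.579). Without sema6A replicate 1 the difference was 0.43 from controls and 0.064 from plexinA2 morphants, and sema6A minus plexinA2 was 0.19 without plexinA2 replicate 1 and 0.57 without sema6A replicate 4. Apart from the fits without 1 array, 9 alternatives were run, and the difference from controls passed, higher, in 1 of them (limma adjusted p = 0.0342). The gene name table does not tell the paralogues a and b of PAPSS2 apart, and the 2 rows cannot be assigned to them here.

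Another 14 rows (72 names) were measured for PAPS synthesis, sulfate transport and sulfotransferases, with the sulfatase genes sulf2a and SULF2 among them. In sema6A morphants against controls 6 were below 0 (median 0.17), including sulf2a (−0.48) and SULF2 (−0.43). None passed in sema6A morphants against controls, sema6A against plexinA2 morphants or plexinA2 morphants against controls. In the same order of comparisons 2, 5 and 2 rows had an unadjusted p under 0.05. Over all rows the share was 26.8% in sema6A against plexinA2 morphants and 17.2% in plexinA2 morphants against controls. Nothing is read from these counts. There was 1 call in sema6A against plexinA2 morphants without control replicate 2 or 4, and 1 in plexinA2 morphants against controls without control replicate 3. PAPSS1, the other PAPS synthase gene, differed by 0.11 in sema6A morphants against controls (limma adjusted p = 0.878). Against plexinA2 morphants it differed by 1.12 (adjusted p = 0.0535), a difference of opposite sign to the lower PAPSS2 row. The keratan sulfate sulfotransferase gene chst6 differed by 0.87 against controls (adjusted p = 0.146) and the galactose sulfotransferase gene GAL3ST4 by −0.62 (adjusted p = 0.242).

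**Figure D3:**
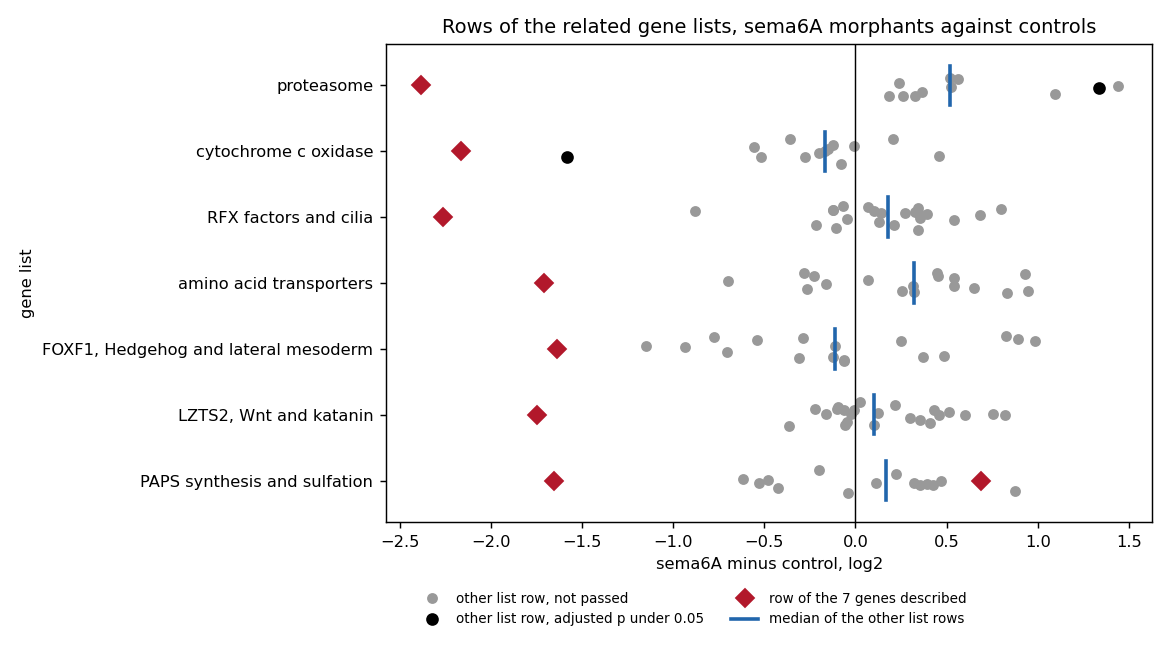
Differences between sema6A morphants and controls (horizontal axis, log2) for the rows of the 7 related gene lists. Red diamonds are the rows of the 7 genes, grey circles other rows that did not pass, black circles rows at a limma adjusted p under 0.05 (NFE2L1 and ndufa4b), and blue bars the medians of the other rows, between −0.17 and 0.52.

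Over the 12 arrays the correlation between 2 of the fallen rows was 0.558 to 0.895 (Pearson, 21 pairs), and since all were chosen for low sema6A values, nothing is read from that range. After each array's value was taken relative to its group mean, the correlation was −0.628 to 0.862 with a median of −0.10, and 8 of 21 pairs were above 0. PSMB2 and FOXF1 moved together most (0.862), both with their lowest value on sema6A replicate 1. That array was instead the highest of its group for RFX1, slc38a5b, LZTS2 and PAPSS2, so its deviations went both ways. Their mean over the 7 rows was 0.11, and those of the other sema6A arrays were −0.22, −0.21 and 0.32. Without both control replicate 2 and sema6A replicate 1, 6 of the 8 rows were lower than in plexinA2 morphants at a limma adjusted p under 0.05, in a fit that called 880 of all 5134 rows, 458 of them lower. In plexinA2 morphants against controls that fit called 0 of the 8 rows and 275 of all rows. The median SD of the 7 rows was 0.61 in sema6A morphants, 0.23 in plexinA2 morphants and 0.47 in controls, and over all rows 0.42, 0.30 and 0.54.

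**Figure D4:**
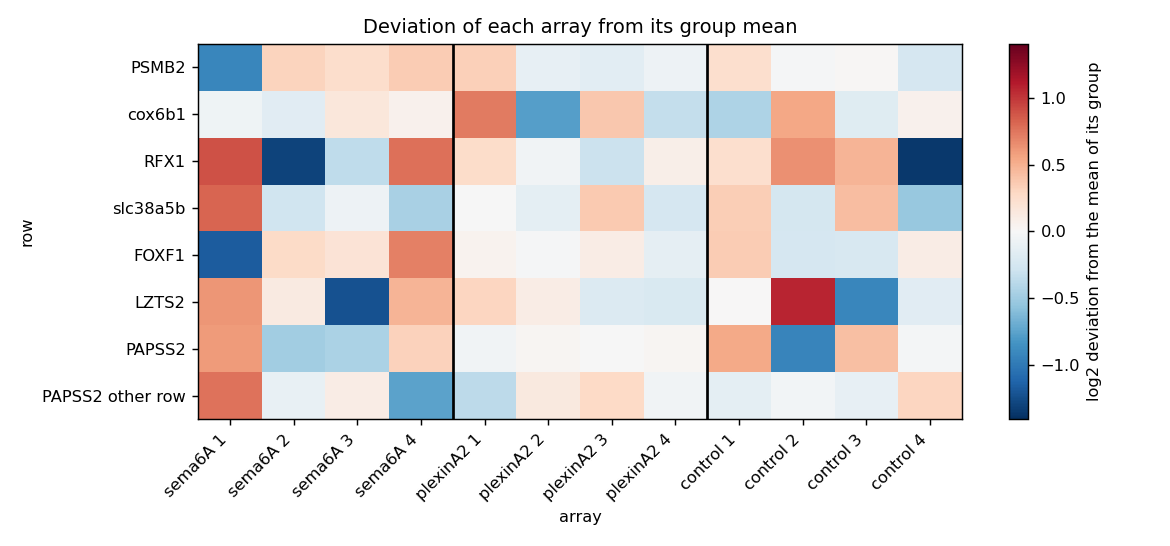
Deviation of each array (horizontal axis) from the mean of its group for the 8 rows (vertical axis), in log2 units from blue (lower) to red (higher). Sema6A replicate 1 is low for PSMB2 (−0.91) and FOXF1 (−1.17) and high for RFX1 (0.89) and slc38a5b (0.81).

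The rows most alike to each gene were found by Pearson's r over the 12 arrays, as a description across 3 groups. For PSMB2 these were ahcyl2b (r = 0.957) and grhprb (0.936), and for FOXF1 they were grhprb (0.959) and the erythroid factor gene gata1a (0.938). After removal of the group means, r was 0.804 for FOXF1 and gata1a. Over the pairs named in this paragraph it ran from 0.645 (cox6b1 and CLCN3) to 0.941 (slc38a5b and CCNG2). All were picked for high r on these same arrays, so nothing is read from these values. The mean of gata1a was lower by −1.59 in sema6A morphants than in controls. The muscle glycogen phosphorylase gene PYGM (0.957) and the chloride channel gene CLCN3 (0.920) were most like cox6b1. ESRP1 (0.947), a splicing regulator gene of epithelia, and the ubiquitin ligase gene SMURF1 (0.936) were most like RFX1. CCNG2 (0.941) and the arginase gene ARG2 (0.921) were most like slc38a5b, and the chemokine gene cxcl12b (0.955) and TENT4B (0.937) most like LZTS2. The lower PAPSS2 row was closest to sb:cb81 (0.958) and SGF29 (0.956).

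Of all rows, 58 fell in sema6A morphants against controls at a limma adjusted p under 0.05, and 19 of these 58 (32.8%) were also lower than in plexinA2 morphants, which is 0.370% of all rows. PSMB2, cox6b1, slc38a5b and PAPSS2 were among the 19. The sema6A arrays are shared by both comparisons. For the 7 genes the median difference was −1.75 from controls and −1.61 from plexinA2 morphants, and plexinA2 morphants differed from controls by a median of −0.35, against 0.065, 0.0044 and 0.043 over all rows. The differences from controls chose the genes, and the other comparisons share arrays with that choice. Nothing is read from the gap between these medians and those of all rows.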

How the data were processed

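RNA of 12 zebrafish embryo samples was labelled with Cy3 by NimbleGen and hybridised to expression arrays of one colour, per the labels. The authors deposited intensity values on a linear scale (26.3 to 42222), made with RMA per the submitters' processing notes, which name no version. RMA can compress differences among dim probes and sets the overall level of each array. Small folds of dim rows may therefore be understated, which was not tested, and a shift of all genes cannot be seen. The genome build and the reason for the 5134 rows are not given in the sources used here. The number of arrays limits the precision, and p-values measure the spread between these samples, whose separate clutches are not stated.

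Values were taken to log2 without a pseudocount. The model, from limma 3.58.1 (R 4.3.3, lmFit and eBayes), was fitted on all 12 arrays with group as the only term (9 residual degrees of freedom, 9.54 from the prior), two-sided, with Benjamini-Hochberg adjustment over 5134 rows. The script was tested on simulated data. There a sema6A change of 1 (log2) was called in 25% of the changed rows against controls and in 22% against plexinA2 morphants. For a change of 2 the shares were 85% and 89%. A row that did not pass is therefore not shown to be unchanged. A table of gene names gave a symbol to 4349 rows. The 9 hand-written lists (7 related lists, p53 response, tissue markers) were matched without case and, failing that, without a trailing paralogue letter, and are described by counts and medians only. For p53 response 10 of 17 rows rose in each morphant against controls and none fell. Among the 23 tissue rows 3 fell in sema6A morphants against controls, 1 against plexinA2 morphants, and none passed in plexinA2 morphants against controls. By rule, named genes are the members, for each list the rows that passed in any comparison or, where none did, the 2 of smallest p in sema6A morphants against controls, rows of the same family, and the 2 rows of highest r. The p53 response rows are given only as a group, apart from CCNG2, which is named for its r with slc38a5b. PSMA4, PSMA5, coa5, cox14, cox7a1, cox8a, COX4I2, TMEM67, dnaaf1, HHIP, GLI3, stk36 and BMP2 fall outside the rule. They were chosen after their values were seen. The sulfatase genes sulf2a and SULF2, and MYT1, named as a larger fall, also fall outside the rule. The members and lists were chosen with earlier results of these data known.

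Also run were a block for replicate number, fits of 2 groups alone, a filter that drops the dimmest 25 percent of rows, quantile normalization, median centring, log2(value + 50), array weights, trended robust eBayes, each array left out in turn, and control replicate 2 and sema6A replicate 1 left out together. Whether the replicate numbers pair the samples is not stated, and 3 of 12 same-number pairs had correlated deviations (r above 0.1). Different-number pairs also passed 0.1, such as sema6A replicate 3 with control replicate 2 (0.313), so no pairing is read from this.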

Additional observations from a re-analysis of the deposited data

Results flagged for a closer look

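In PSMB2, sema6A replicate 1 (log2 signal 10.314) lay far below the other 3 sema6A arrays (11.470 to 11.577), and plexinA2 replicate 1 (13.703) lay far above the other 3 plexinA2 arrays (13.223 to 13.304). In each case the gap to the nearest array made up more of the group's range than Dixon's 95% critical value of 0.829 allows. Chance gives about 1 in 20 such groups, and 2 of the 24 groups tested over the 8 rows were past it. Without sema6A replicate 1 PSMB2 was lower by −2.08 in sema6A morphants than in controls and by −1.84 than in plexinA2 morphants (limma adjusted p = 0.00448).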

How the results depend on the processing

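Leaving out 1 array in turn gave 66 to 226 called rows in sema6A morphants against controls (160 with all arrays), 6 to 495 in sema6A against plexinA2 morphants (88) and 79 to 326 in plexinA2 morphants against controls (147). Of the 8 rows described, 1 to 6 were called in sema6A against plexinA2 morphants (4 with all arrays) and 0 to 0 in plexinA2 morphants against controls. The fewest, PSMB2 alone, came without plexinA2 replicate 1, 3 or 4 or sema6A replicate 2 or 3, and the most without control replicate 2. With array weights the 3 counts over all rows were 1407, 2273 and 1629, and 7 and 2 of the 8 rows were called, the 2 being slc38a5b (−0.75) and FOXF1 (−0.87). With only the groups compared the counts were 47 and 743 in the comparisons of sema6A morphants. In sema6A against plexinA2 morphants, the 88 rows were 23 higher and 65 lower. They were 158 (68 higher, 90 lower) after quantile normalization, 146 (65 and 81) after median centring and 136 (52 and 84) with log2(value + 50). The replicate block gave 144 rows and 5 of the 8, adding LZTS2 (limma adjusted p = 0.0440). Whether same-number arrays share a clutch or batch is not stated, and with 4 arrays per group the deviations cannot settle it. Of 24 comparisons of an array with another group, 5 were highest for its own number. Same-number r ran from −0.242 (plexinA2 with control) to 0.361 (sema6A with control). Without control replicate 2 and sema6A replicate 1 together there were 880 rows, and 275 in plexinA2 morphants against controls. PlexinA2 minus control turned sign for LZTS2 without control replicate 2, alone or together with sema6A replicate 1 (0.021 in both), and for PAPSS2 in the same fits (−0.034 in both) and with array weights (−0.10). Over the fits without 1 array these differences were −0.64 to 0.021 for LZTS2 and −0.034 to 0.45 for PAPSS2. No other difference of the 8 rows turned sign under any alternative tried, and 463 of 504 kept direction and side of the threshold or, where untested, moved by less than the replicate SD. Many of the 504 could not change in size, as with the replicate block or with an array of the third group left out. The count is therefore no measure of stability. The cause of the changes under the alternatives was not tested. FOXF1 and the other PAPSS2 row were the dimmest of the 8 by mean signal, at percentiles 42.5 and 32.7 of all rows. Whether RMA compression affected them was not tested.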
